A study of Mus musculus with 6 samples.

Results

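The EGF family of growth factors and their ERBB receptors were followed here as 10 genes in 6 libraries of mouse pancreatic tumour organoids: the ligand genes Areg, Ereg, Hbegf, Tgfa, Btc and Epgn, the receptor genes Egfr, Erbb2 and Erbb3, and Errfi1, whose product inhibits EGFR. The genes were chosen by name, out of 54453 Ensembl genes in the count tables, and each name matched a single identifier. Of the 10, 9 passed a filter on low counts that left 14169 genes, and Epgn did not. With the Scrib hairpin, libraries of 3 organoid lines (T91, T113 and T118) were set against libraries of the same lines with a control hairpin against Renilla luciferase. Every line is a KPC organoid line, a kind of culture grown from a mouse model of pancreatic ductal adenocarcinoma, with the genotype given as KPF/FC. T91 (passage 10) is labelled female, and T118 (passage 11) and T113 (passage 13) male. A single hairpin, number 5523, was used against Scrib, and each line gave 1 library per hairpin, so effects of that sequence on other transcripts cannot be told apart from loss of Scrib and no spread between cultures of 1 line is known.

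EGF-family ligands are made as membrane-anchored precursors that metalloproteases of the ADAM family cut loose. The freed ligands, often acting on the cell that made them, bring ERBB receptors together in pairs, which starts RAS-ERK and PI3K-AKT signalling. EGFR binds all 6 ligands studied here. ERBB2 has no known ligand of its own and serves as a partner, and ERBB3 binds neuregulins but has a weak kinase and signals through its partners.

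Libraries held between 24035559 and 36235773 estimated counts, and 1 count was worth between 0.0276 and 0.0416 unnormalised CPM (counts scaled by the library total). Scrib, the targeted gene, had 29.7, 35.0 and 30.0 CPM with the Scrib hairpin in T91, T113 and T118, against 177, 157 and 158 CPM with the Renilla hairpin. It fell in every line, by 2.38 on the log2 scale overall (standard error 0.12), at an adjusted p of 0.00582 by edgeR. CPM of single genes are scaled to TMM library sizes unless called unnormalised, and sums of marker genes are unnormalised CPM throughout. The 10 ductal epithelial markers examined summed to between 7921 and 10689 CPM with the Scrib hairpin and to between 8606 and 13097 with the Renilla hairpin. Fibroblast markers (10 genes) summed to between 1.51 and 7.99 CPM against between 1.14 and 1.74 CPM, with Lum at 0 in every library and Col1a1 the highest, at no more than 3.49 CPM. The fibroblast sum of T91 with the Scrib hairpin, 7.99 CPM, stood apart from those of T113 (1.51) and T118 (2.29) with that hairpin. Only 2 fibroblast markers passed the low-count filter, and both were higher with the Scrib hairpin in all 3 lines (14.7% of all genes tested). Their log2 fold changes were 1.19 and 1.60. Both had an unadjusted p under 0.05 by edgeR (1.55% of all genes were higher at it), and the smaller adjusted p was 0.712. Markers of macrophages and leukocytes (9 genes, Cd68 the highest) summed to between 2.25 and 6.16 against between 3.41 and 4.47 CPM. Sums of endothelial, acinar and endocrine markers did not exceed 1.64 CPM in any library. Neural and Schwann cell markers summed to between 72.4 and 108 against between 75.4 and 104 CPM, nearly all of it Mbp, with Sox10 at 0. In bulk libraries, fewer cells of a kind and less RNA per cell cannot be told apart.

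No ligand, receptor or inhibitor gene passed the test of the knockdown, although all 9 genes tested had an average log2 fold change below 0 (Scrib over Renilla hairpin). The adjusted p-values of the 9 genes ran from 0.735 to 0.838 by edgeR's quasi-likelihood test, and 0.00706% of all genes tested passed, namely Scrib alone. DESeq2 and limma-voom also passed 0 of the 9. The share of all genes with a log2 fold change below 0 was 51.8%. At an unadjusted p under 0.05 there were 3 of the 9, Btc, Erbb3 and Errfi1, all lower, where 6.61% of all genes reached that level and 5.06% were lower at it. In all 3 lines the library with the Scrib hairpin was the lower one for 5 of the 9 genes (Ereg, Btc, Tgfa, Erbb3 and Errfi1), and such genes made up 15.4% of all genes tested. Of these, Ereg and Errfi1 had nearly level libraries in T91, at log2 ratios of -0.0045 and -0.029. None of the 9 was higher in all 3 lines (14.7% of all genes), and none had its groups apart in the higher direction (2.6%). The medians were -0.40 for the 5 ligands, -0.23 for the 3 receptors and -0.01 for all genes tested.

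**Figure D1:**
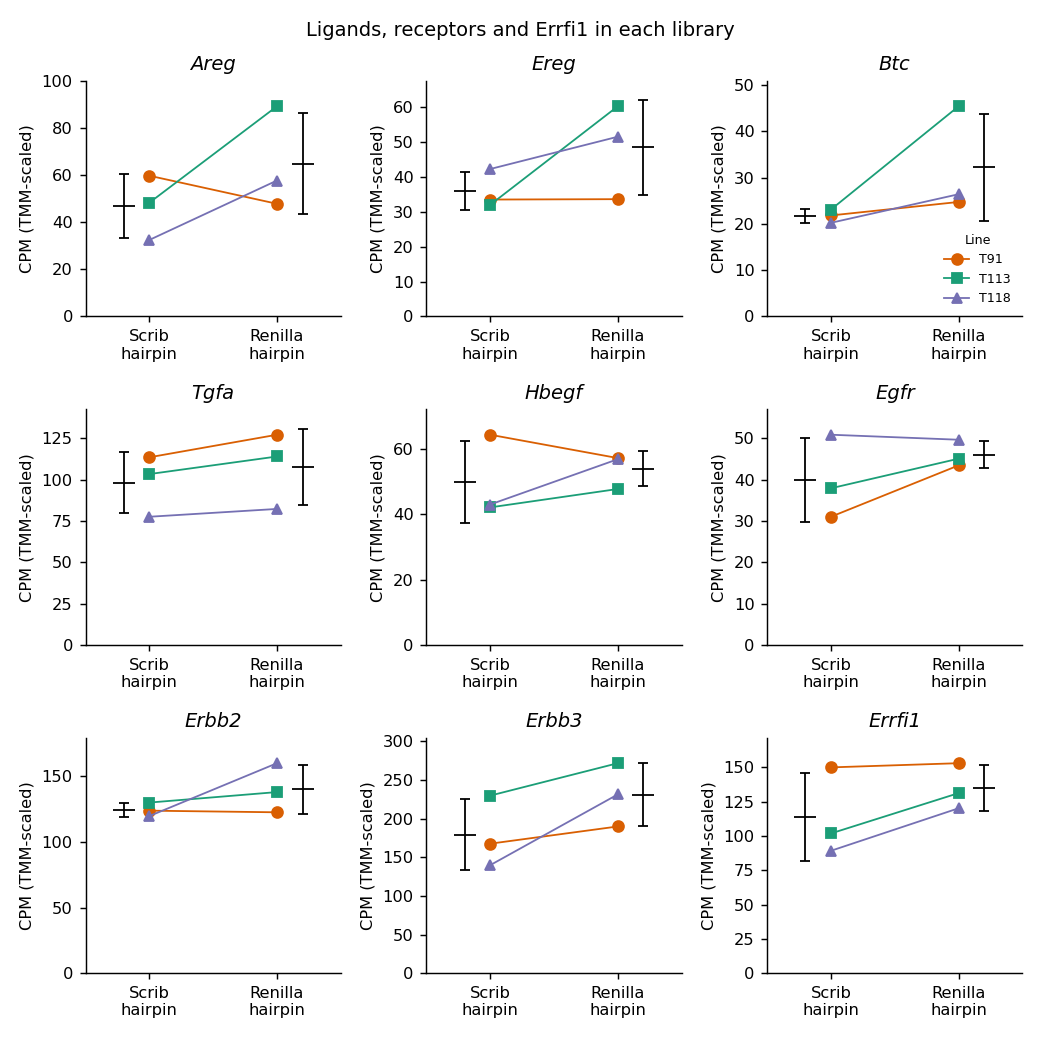
CPM scaled to TMM library sizes (vertical axis, from 0) of 9 genes in each library, with the Scrib hairpin on the left and the Renilla hairpin on the right of each panel, lines joining the libraries of an organoid line, and black bars for the mean and SD of 3 libraries. The groups do not overlap for Btc and overlap for the other 8 genes.

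Among the ligands, those encoded side by side on chromosome 5 had the largest differences. Areg encodes amphiregulin, a ligand of EGFR. Areg (ENSMUSG00000029378, plus strand of chromosome 5, 91139599 to 91148432 in GRCm38) stood at 59.8, 48.4 and 32.5 CPM with the Scrib hairpin in T91, T113 and T118, and at 47.9, 89.4 and 57.8 CPM with the Renilla hairpin. In T113 and T118 the library with the Scrib hairpin was the lower one, at 54.1% and 56.3% of its counterpart, whereas in T91 it was the higher one, at 125%. Over the lines Areg averaged 46.9 ± 13.7 CPM with the Scrib hairpin and 65.0 ± 21.7 CPM with the Renilla hairpin (SD, n = 3 each), and the groups overlapped. The log2 fold change was -0.47 (standard error 0.25, 95% interval -1.10 to 0.16), with an adjusted p of 0.783 by edgeR. Without T91 it was -0.86, with an adjusted p of 0.0125 by edgeR. Without T118 it was -0.29 (adjusted p of 0.968 by edgeR) and without T113 -0.25 (adjusted p of 1). Under the 11 alternatives tried, the adjusted p of Areg ran from 0.0125 to 1. Summed ductal epithelial markers, summed macrophage and leukocyte markers and summed acinar markers all had the same order of hairpins by line as Areg. Ductal markers summed to 10689, 7921 and 10000 unnormalised CPM with the Scrib hairpin in T91, T113 and T118, against 9683, 8606 and 13097 with the Renilla hairpin. Krt8 was the highest of them, and 6 had a log2 fold change below 0 and 4 above it. Macrophage and leukocyte markers summed to 6.16, 2.25 and 2.64 unnormalised CPM with the Scrib hairpin, against 3.41, 4.14 and 4.47 with the Renilla hairpin. Of these 9 markers, 7 stayed under 1 CPM in every library. The scarce acinar markers summed to 0.749, 0.537 and 0.179 unnormalised CPM with the Scrib hairpin, against 0.736, 0.883 and 0.667 with the Renilla hairpin. The part of any of these cell types in the values of Areg was not tested.

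Ereg encodes epiregulin, which binds EGFR and ERBB4. Ereg (ENSMUSG00000029377, plus strand of chromosome 5, 91074622 to 91093646) had 33.5, 32.0 and 42.3 CPM with the Scrib hairpin in T91, T113 and T118, against 33.6, 60.3 and 51.5 CPM with the Renilla hairpin. The libraries of T91 were nearly level, at a log2 ratio of -0.0045, and T113 had the widest gap, at -0.90. Over the lines the log2 fold change was -0.40 (standard error 0.18, 95% interval -0.83 to 0.02), with an adjusted p of 0.77 by edgeR. Leaving out T113 gave -0.14. The first exonic bases of Ereg overlap an antisense gene, Gm19610, by 141 bases. Since no strand setting is stated, reads of that stretch cannot be assigned to either, and Gm19610 itself was counted at about 1 CPM.

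Btc encodes betacellulin, a further ligand of EGFR and ERBB4. Btc (ENSMUSG00000082361, minus strand of chromosome 5, 91357261 to 91402994) had 21.8, 23.1 and 20.2 CPM with the Scrib hairpin, against 24.7, 45.4 and 26.4 CPM with the Renilla hairpin, in T91, T113 and T118. Every library with the Scrib hairpin lay below every library with the Renilla hairpin, a separation in that direction that 2.14% of all genes tested showed. The levels with the Scrib hairpin were close together, at 21.7 ± 1.44 CPM, while those with the Renilla hairpin were at 32.2 ± 11.5 CPM (SD, n = 3 each) through the high library of T113. The log2 fold change was -0.52 (standard error 0.17, 95% interval -0.92 to -0.12), with an unadjusted p of 0.0187 and an adjusted p of 0.735 by edgeR. Leaving out T113 gave a log2 fold change of -0.28.

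**Figure D2:**
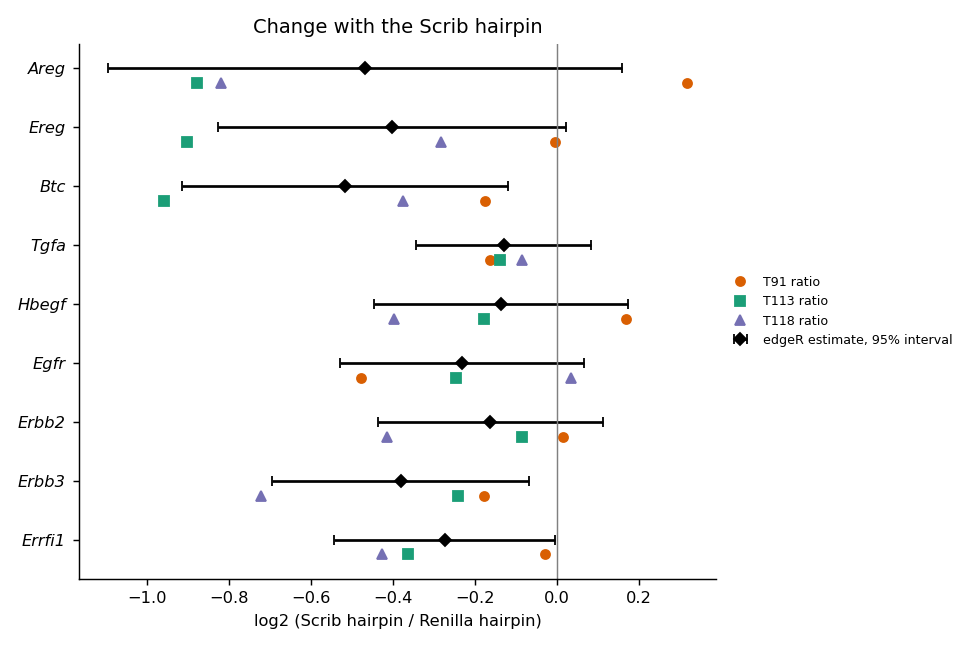
Log2 ratio of the Scrib over the Renilla hairpin (horizontal axis) for 9 genes, with edgeR's estimate over the lines as a diamond, its 95% interval as a bar, and the ratio within each line as a coloured marker below. Intervals of Btc, Erbb3 and Errfi1 lie below 0, unadjusted for the number of genes tested, and Areg has its T91 ratio (0.32) and its T113 ratio (-0.88) on opposite sides of 0.

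The remaining ligands showed smaller differences. Tgfa encodes transforming growth factor alpha, a ligand of EGFR. Tgfa (ENSMUSG00000029999, plus strand of chromosome 6, 86195223 to 86275719, sharing some exonic bases with Gm43917 on the other strand) had 114, 103 and 77.5 CPM with the Scrib hairpin in T91, T113 and T118, against 127, 114 and 82.3 CPM with the Renilla hairpin. The difference was small and similar in each line, namely -0.16, -0.14 and -0.08 as log2 ratios, and the groups overlapped because the lines differ. Its log2 fold change was -0.13 (standard error 0.09), with an adjusted p of 0.804 by edgeR and a 95% interval from -0.34 to 0.08. Hbegf encodes heparin-binding EGF-like growth factor. Hbegf (ENSMUSG00000024486, minus strand of chromosome 18, 36504927 to 36515805) had 64.3, 42.1 and 43.0 CPM with the Scrib hairpin in T91, T113 and T118, against 57.2, 47.7 and 56.8 CPM with the Renilla hairpin. As for Areg, the T91 library with the Scrib hairpin was the higher one of its pair and those of T113 and T118 were the lower ones. For Hbegf the log2 fold change was -0.14 (standard error 0.13, 95% interval -0.45 to 0.17), with an adjusted p of 0.838 by edgeR. Leaving out T91 gave -0.29 for Hbegf, and leaving out T118 gave -0.0077. Epgn, which encodes epigen, had 0, 1 and 4 estimated counts with the Scrib hairpin and 4, 4 and 3 with the Renilla hairpin, at or near the limit of 3 counts that a count of 0 allows, so that no difference was detectable at this depth (the limit covers counting error only).

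Among the receptors, Erbb3 had the largest difference. Erbb3 (ENSMUSG00000018166, minus strand of chromosome 10, 128567523 to 128589652) had 168, 230 and 140 CPM with the Scrib hairpin in T91, T113 and T118, against 190, 272 and 232 CPM with the Renilla hairpin. It was lower with the Scrib hairpin in each line, at 88.3%, 84.6% and 60.5% of the counterpart, with the widest gap in T118. The groups overlapped, at 179 ± 46.1 CPM with the Scrib hairpin and 231 ± 40.9 CPM with the Renilla hairpin (SD, n = 3 each). The log2 fold change was -0.38 (standard error 0.13, 95% interval -0.70 to -0.07), with an unadjusted p of 0.0241 and an adjusted p of 0.744 by edgeR. Leaving out T118 gave a log2 fold change of -0.21.

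Erbb2 and Egfr differed in which line had the gap. Erbb2 (ENSMUSG00000062312, plus strand of chromosome 11, 98412470 to 98437716, with 9 exonic bases shared with Mien1 on the other strand) had 124, 130 and 120 CPM with the Scrib hairpin in T91, T113 and T118, against 123, 138 and 160 CPM with the Renilla hairpin. Its libraries with the Scrib hairpin were close together, and the gap was mainly in T118, where it stood at 74.8% of the counterpart. Over the lines Erbb2 was at a log2 fold change of -0.16 (standard error 0.11, 95% interval -0.44 to 0.11), with an adjusted p of 0.804 by edgeR. It was -0.25 without T91 and -0.04 without T118. Egfr (ENSMUSG00000020122, plus strand of chromosome 11, 16752203 to 16918158) had 31.0, 37.9 and 50.8 CPM with the Scrib hairpin, against 43.4, 45.0 and 49.6 CPM with the Renilla hairpin, in T91, T113 and T118. For Egfr the gap was widest in T91, at 71.4% of the counterpart, and T118 had nearly level libraries. Over the lines Egfr was at a log2 fold change of -0.23 (standard error 0.12, 95% interval -0.53 to 0.07), with an adjusted p of 0.781 by edgeR. It was -0.11 without T91 and -0.37 without T118.

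Errfi1 encodes MIG6, which binds the EGFR kinase and restrains it, and is induced by EGFR signalling. Errfi1 (ENSMUSG00000028967, plus strand of chromosome 4, 150853919 to 150868892) had 150, 102 and 89.3 CPM with the Scrib hairpin in T91, T113 and T118, against 153, 131 and 120 CPM with the Renilla hairpin. The libraries of T91 were nearly level, while those with the Scrib hairpin were at 77.6% and 74.3% of their counterparts in T113 and T118. The log2 fold change was -0.27 (standard error 0.11, 95% interval -0.54 to -0.0052), with an unadjusted p of 0.0469 and an adjusted p of 0.753 by edgeR.

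Counted by line, the Scrib hairpin library was the lower one for 6 of the 9 genes in T91, for 9 in T113 and for 8 in T118. Over all genes tested these shares were 49.8%, 50.5% and 50.2%. For the 5 ligands the median ratio in T91, T113 and T118 was -0.0045, -0.88 and -0.38, and for the 3 receptors it was -0.18, -0.24 and -0.42. The median ratio was thus lowest in T113 for the ligands and in T118 for the receptors, while single genes differed, with Egfr lowest in T91 (-0.48) and Hbegf in T118 (-0.40). With 1 library per line and hairpin, differences between lines in the size of the effect were not tested.

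The stretches before the transcription starts were searched for the letters of 4 binding motifs. RefSeq windows in GRCm38.p6 were searched for 7 of the 10 genes, 8 windows in all since Errfi1 has a second start. Ereg, Hbegf and Erbb3 were not searched, so whether they hold any of these letters is not known here. The 250 bases before each start were searched on both strands. The letters TGACGTCA, the cyclic AMP response element, occurred in the Areg window, 61 bases before the start, and in the window of the second Errfi1 start, 51 bases before it. Of all 32851 windows, 1.55% hold them. The letters TATAAA of the TATA box followed in both, 31 and 28 bases before the start, and 12.4% of windows hold TATAAA while 0.119% hold both sets of letters. These sets of letters do not overlap each other. Epgn also holds TATAAA, 86 bases before its start. The AP-1 letters TGANTCA (in 6.75% of windows) occurred in none of the 8 windows, and the TEAD letters GGAATG (12.6%) occurred in Erbb2 and at the first Errfi1 start. The last 120 bases before the start are shown for both genes and for Btc and Tgfa, which hold neither set, with TGACGTCA and TATAAA in capitals. They lie at chr5:91139479-91139598 (Areg, plus strand), chr4:150854950-150855069 (Errfi1, plus strand), chr5:91402995-91403114 (Btc, minus strand) and chr6:86195102-86195221 (Tgfa, plus strand).
Areg: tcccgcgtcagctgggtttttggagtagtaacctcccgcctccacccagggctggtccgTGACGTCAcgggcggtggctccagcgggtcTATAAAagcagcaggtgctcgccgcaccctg
Errfi1: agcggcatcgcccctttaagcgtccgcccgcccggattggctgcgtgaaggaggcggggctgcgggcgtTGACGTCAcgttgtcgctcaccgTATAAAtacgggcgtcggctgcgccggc
Btc: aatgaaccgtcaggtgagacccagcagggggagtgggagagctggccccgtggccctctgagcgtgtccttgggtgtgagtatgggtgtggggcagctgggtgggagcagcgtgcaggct
Tgfa: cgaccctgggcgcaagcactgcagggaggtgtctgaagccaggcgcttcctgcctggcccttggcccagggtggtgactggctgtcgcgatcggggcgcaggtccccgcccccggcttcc

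Epgn, Ereg, Areg and Btc lie within 376 kb of each other on chromosome 5 (91027464 to 91402994), next to a group of chemokine genes. Genes up to 0.5 Mb to either side were examined after the values of the ligands had been seen, and no list of them was tested. Of 16 protein-coding genes in that stretch, 7 averaged at least 10 CPM over the libraries, 3 ligands and 4 neighbours. In T113, where the ligands had ratios from -0.96 to -0.88, the neighbours had ratios of -0.27 (Rassf6), -0.17 (the chemokine gene Cxcl5), 0.08 (Mthfd2l, a mitochondrial folate enzyme gene) and -0.26 (Parm1). In T118 Areg was at -0.82, Ereg at -0.28 and Btc at -0.38, while the neighbours ran from -0.33 (Rassf6) to 0.39 (Mthfd2l). In T91 the ratios of the ligands, 0.32 (Areg), -0.0045 (Ereg) and -0.18 (Btc), and those of the neighbours, from -0.11 (Parm1) to 0.20 (Cxcl5), overlapped. Over the lines the neighbours had log2 fold changes of -0.16, -0.07, 0.14 and -0.20 in the order given first, none past edgeR's test (adjusted p from 0.772 to 0.918). Chemokine genes tested but averaging below 10 CPM went both ways. Cxcl2, at between 0.220 and 10.4 CPM, had ratios of -0.22, -0.52 and -0.98 in T91, T113 and T118. Its log2 fold change was -0.73 (standard error 0.33), against -0.19 for Cxcl1, 0.15 for Cxcl3 and 0.25 for Ppbp. None of them passed edgeR's test (adjusted p from 0.772 to 0.935). Cxcl5 showed a line pattern of its own, with 107, 26.1 and 10.2 CPM with the Scrib hairpin and 93.3, 29.4 and 12.3 CPM with the Renilla hairpin in T91, T113 and T118.

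**Figure D3:**
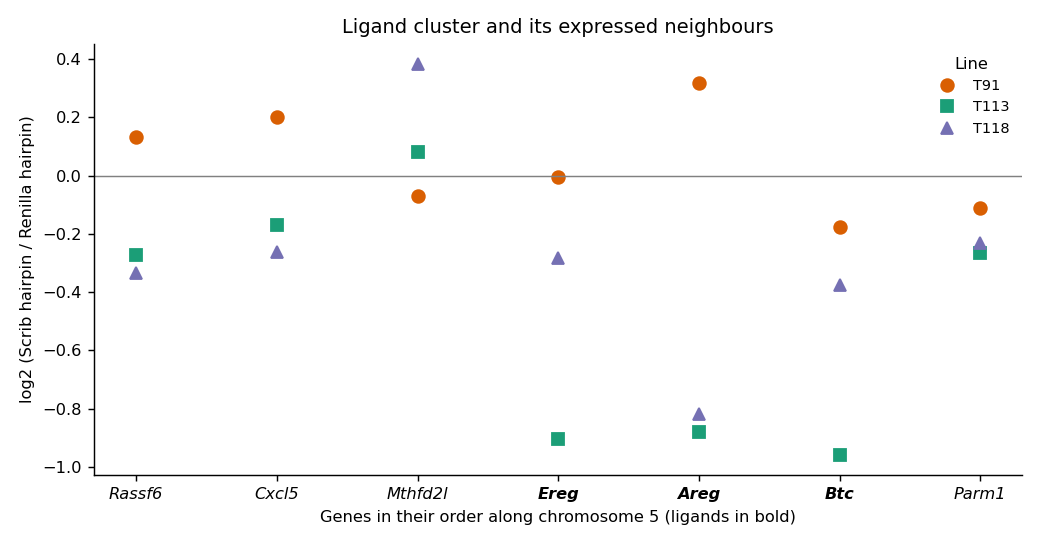
Log2 ratio of the Scrib over the Renilla hairpin in each line (vertical axis) for the protein-coding genes averaging at least 10 CPM around the ligand cluster, placed in their order along chromosome 5 and not to scale. In T113 the ligands Ereg, Areg and Btc lie between -0.96 and -0.88, and the 4 neighbours between -0.27 and 0.08.

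To compare levels between genes, estimated counts were divided by the length of the merged exons and scaled to the same total in every library, as for TPM (per-length level). Areg was the highest of the ligands in every library, at 114 ± 31.2 with the Scrib hairpin and 163 ± 58.8 with the Renilla hairpin on this scale (SD, n = 3 each). It was followed by Tgfa (44.9 ± 8.49 and 50.6 ± 12.3), then by Hbegf (30.3 ± 5.90 and 33.7 ± 2.72) and Ereg (25.8 ± 3.86 and 35.6 ± 10.3) and last by Btc (14.3 ± 1.73 and 21.7 ± 8.41), each with the Scrib and then the Renilla hairpin. Hbegf averaged above Ereg with the Scrib hairpin and below it with the Renilla hairpin. Over the 6 libraries Areg (78.7 to 230) did not overlap Tgfa (35.1 to 60.1), whereas Tgfa overlapped Hbegf (26.1 to 37.1), Hbegf overlapped Ereg (22.6 to 45.6) and Ereg overlapped Btc (13.2 to 31.4). With the length of the longest transcript, Hbegf averaged above Ereg with the Renilla hairpin as well. Erbb3 (89.3 ± 28.5 with the Scrib and 117 ± 22.7 with the Renilla hairpin) and Erbb2 (71.1 ± 7.32 and 81.3 ± 8.42) stood far above Egfr (10.5 ± 2.79 and 12.3 ± 0.476). Erbb3 and Erbb2 overlapped in their levels. Areg made up 49.1 ± 5.43% of the summed ligand level with the Scrib hairpin and 52.6 ± 5.95% with the Renilla hairpin. Egfr made up 6.30 ± 2.20% and 5.90 ± 0.623% of the summed receptor level.

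With the Scrib hairpin the ligands summed to 259.1, 246 and 184 in T91, T113 and T118, against 259.4, 393 and 262 with the Renilla hairpin. Libraries with the Scrib hairpin all lay below those with the Renilla hairpin, though those of T91 were nearly level. Receptors summed to 152, 212 and 149 with the Scrib hairpin and to 181, 237 and 213 with the Renilla hairpin, and here the groups overlapped. No test was made of these sums.

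**Figure D4:**
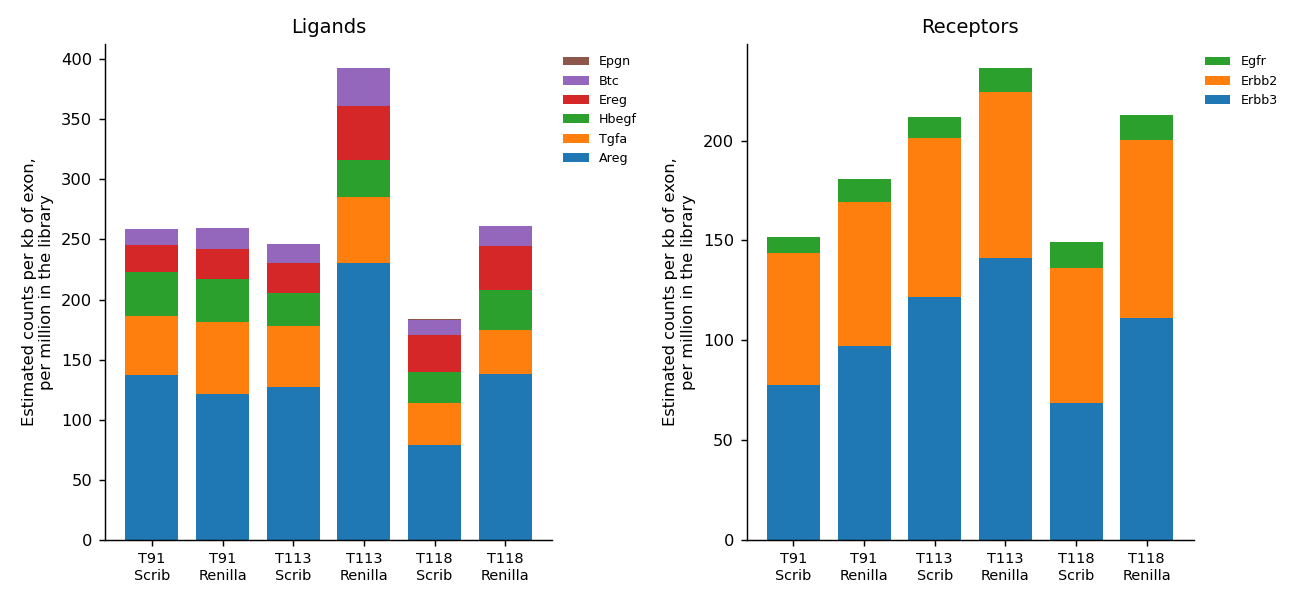
Stacked per-length levels (estimated counts per kb of merged exon, scaled to the same total in every library) of the 6 ligands on the left and the 3 receptors on the right, 1 bar per library, Scrib hairpin before Renilla hairpin in each line. Areg is the largest part of every ligand bar, from 42.9% to 58.5%, and Epgn is too scarce to be seen.

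The other genes of the family were scarce. Erbb4 had 0 counts in all 6 libraries, and Nrg3 had 1 count in T113 with the Renilla hairpin and 0 elsewhere. Nrg1, which encodes the neuregulin ligand of ERBB3 and ERBB4, had 24 estimated counts with the Scrib hairpin and 31.1 with the Renilla hairpin in T91, 1 and 1 in T113, and 0 and 0 in T118. It was thus detected above 3 counts in T91 alone, at 0.999 and 1.04 unnormalised CPM, and did not pass the low-count filter. Nrg2, a further neuregulin gene, ran from 0.679 to 2.85 unnormalised CPM. Egf, the founding ligand of the family, ran from 0.434 to 1.04, and Nrg4 from 0.143 to 1.07 unnormalised CPM. None of the 3 passed edgeR's test (log2 fold changes -0.48 for Nrg2, -0.08 for Egf and -0.95 for Nrg4, adjusted p from 0.783 to 0.975).

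Differences between the lines themselves passed the test for Tgfa alone. The lines also differ in passage, and T91 differs from T113 and T118 in labelled sex, so line cannot be told apart from these. In the F-test of both line terms, 14% of all genes passed, and 1 of the 9 genes of the family did. Tgfa averaged 120 CPM in T91, 109 in T113 and 79.9 in T118 over both hairpins (adjusted p of 0.0319 by edgeR). T118 was lower than T91 by a log2 fold change of -0.59 (standard error 0.11, adjusted p of 0.0199 by edgeR), a contrast that 11% of all genes passed, and lower than T113 by one of -0.44 (standard error 0.11), which did not pass (adjusted p of 0.0529 by edgeR, with 10.2% of all genes passing). Between T113 and T91, where 6.06% of all genes passed, none of the 9 did. Errfi1, at 151, 117 and 105 CPM in T91, T113 and T118, came nearest after it, with an adjusted p of 0.0803 by edgeR. For Erbb3, at 179, 251 and 186 CPM in those lines, it was 0.131. The call for Tgfa held in every alternative run over all 3 lines and without T91, and it was lost in the fits of T91 with T113 (adjusted p of 0.61) and of T91 with T118 (adjusted p of 0.099).

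Other genes of the pathway were described by lists of the machinery around the receptors, and none of their members passed edgeR's test of the knockdown. Of 11 genes for shedding and processing of ligands 10 were tested, with a median log2 fold change of 0.02 and 6 above 0. Adam17, the main sheddase of this family, was at 114 ± 3.76 CPM with the Scrib hairpin and 112.8 ± 8.28 CPM with the Renilla hairpin (SD, n = 3 each). Its log2 fold change was 0.01 (standard error 0.09), with an adjusted p of 0.979 by edgeR. Adam10, which also sheds betacellulin, was at -0.20 (standard error 0.11), and the pseudoprotease gene Rhbdf2, whose product carries ADAM17 to the surface, at -0.11 (0.09). Timp3, an inhibitor of ADAM17, had the largest value in the list at 0.66 (0.29), from ratios of -0.20, 1.24 and 0.92 in T91, T113 and T118, with an adjusted p of 0.772 by edgeR. Its levels were 180, 42.9 and 159 CPM with the Scrib hairpin and 207, 17.8 and 83.4 CPM with the Renilla hairpin in T91, T113 and T118. In T113 and T118 Timp3 was thus higher with the Scrib hairpin where Areg was lower, and a link between these transcript levels was not tested. Timp3 was 1 of 4 genes of this list that passed the F-test between lines (adjusted p of 0.0204 by edgeR).

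For genes that restrain receptors or turn them over, all 18 were tested, 14 were below 0 and the median was -0.07. Ptprj, a receptor phosphatase that acts on EGFR, had the smallest p among the listed pathway genes. It stood at 57.1, 80.0 and 83.6 CPM with the Scrib hairpin in T91, T113 and T118, against 83.4, 99.9 and 114 CPM with the Renilla hairpin. It was lower in each line, by a log2 fold change of -0.44 (standard error 0.10, unadjusted p of 0.0031, adjusted p of 0.554 by edgeR). Cblb, a ubiquitin ligase of the CBL family, was at -0.52 (0.19), with an adjusted p of 0.748 by edgeR. Its groups did not overlap, in the lower direction, as for 1 of the 18 genes of this list and 2.14% of all genes tested. The endosomal sorting nexin gene Snx5 was at 0.22 (0.09).

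Downstream, medians over the lines stayed near that of all genes, while medians within single lines lay further from it. For 12 adaptor and RAS exchange genes the median was -0.03, with Nf1 at -0.15 (standard error 0.19), Sos2 at -0.09 (0.13) and Nck1 at -0.07 (0.12). For 13 genes of the RAS-ERK core it was -0.03, with Rps6ka3, an ERK-activated kinase gene, at -0.33 (0.12), Hras at 0.20 (0.10) and the scaffold gene Ksr1 at -0.20 (0.10). For 17 PI3K-AKT, PLC and STAT genes it was -0.05, with Akt1 at 0.16 (0.09), Pik3cb at 0.23 (0.13) and the scarce Pik3cd at -0.75 (0.40). In T91, T113 and T118 the median ratios were -0.23, -0.0030 and 0.17 for the adaptor list. They were -0.18, 0.01 and 0.10 for the PI3K-AKT list and -0.08, -0.05 and -0.0039 for the RAS-ERK core. For all genes tested they lay between -0.0029 and 0.0005. The 10 genes of a signature of MAPK activity had a median of -0.07. Of these 6 were below 0, and 3 were lower at an unadjusted p under 0.05 (5.06% of all genes tested), namely the phosphatase gene Dusp4 at -0.35 (0.09), the ephrin receptor gene Epha4 at -0.37 (0.14) and the feedback inhibitor gene Spry4 at -0.28 (0.11). Signature members above 0 included Ccnd1, the cyclin D1 gene, at 0.16. Dusp4, Epha4 and Spry4 were lower with the Scrib hairpin in T91 as well (ratios of -0.29, -0.61 and -0.25), and Epha4 was nearly level in T118 (-0.0036).

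**Figure D5:**
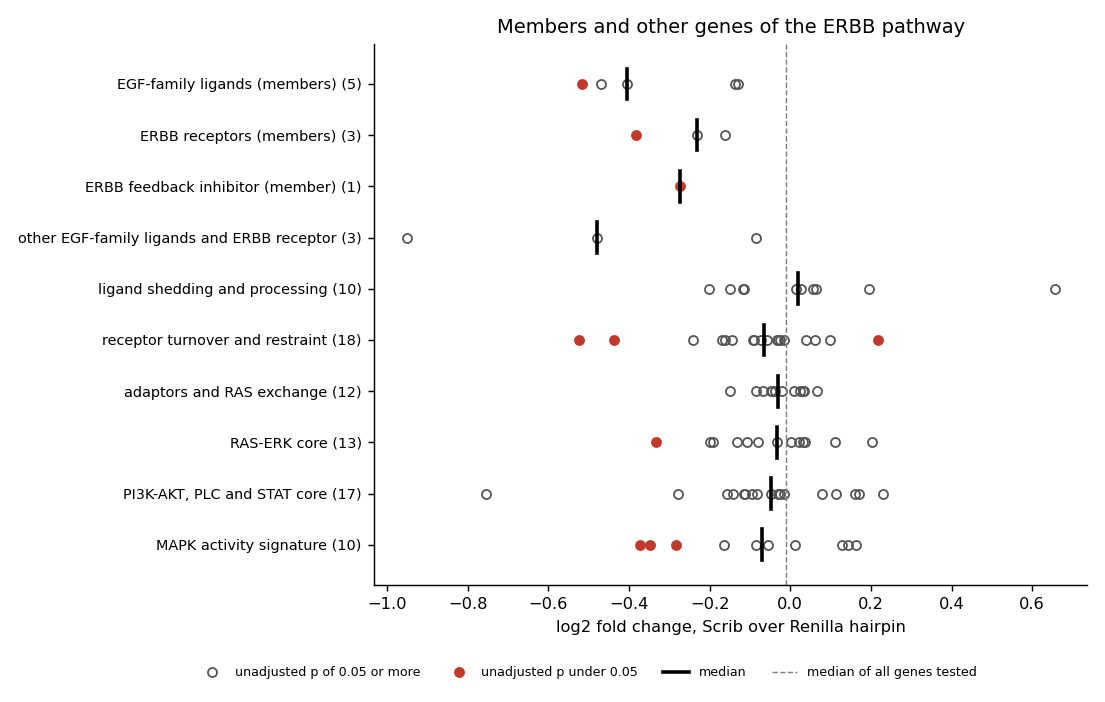
Log2 fold changes of the Scrib over the Renilla hairpin (horizontal axis) for the genes tested in each list, their number in brackets, with black bars for list medians, filled points for an unadjusted p under 0.05 and a dashed line for the median of all genes tested (-0.01). Medians are -0.40 for the ligands and -0.23 for the receptors and between -0.07 and 0.02 for the 6 lists from shedding to the MAPK signature.

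Areg and Btc varied most over the 6 libraries, with SDs of 0.47 and 0.41 log2 CPM. For each, the 10240 other protein-coding genes with an average log2 CPM of at least 2 were ranked by the root mean square difference from its profile, after centring each gene on its mean. Closest to Areg were Pmaip1, which encodes the pro-apoptotic protein NOXA (0.08 log2 units), Ypel5 (0.11) and the endoplasmic reticulum chaperone gene Dnajb9 (0.13), where the median gene was at 0.48. Among those closest to Btc were the cystine transporter gene Slc7a11 (0.13) and Ccdc71l (0.15), against a median of 0.42. The 6 libraries share their lines and hairpins, so these values only describe likeness over them.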

How the data were processed

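RNA from organoids grown in Matrigel was sequenced as mRNA libraries, per the labels' protocols. The labels' treatment text says that hairpins came by virus, the design text by transfected plasmid. Per gene, the deposited values are estimated counts without normalisation by the authors, and the submitters' processing notes name Salmon 1.4.0, DESeq 2 and the build GRCm38 (mm10). What DESeq was used for, the annotation and any strand setting were not given in the sources used here. Estimated counts were rounded and analysed in R 4.3.3. GENCODE M21 gave symbols for 54200 of 54453 identifiers.

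Genes passed edgeR 4.0.16's filterByExpr (minimum count 10). TMM scaling, quasi-likelihood tests with terms for line and hairpin (two-sided, Benjamini-Hochberg over 14169 genes, threshold 0.05) and within-line ratios of CPM + 0.5 followed. Standard errors and 95% intervals come from the moderated F statistic. In simulated data with 14169 genes, this knockdown comparison recovered 84% of 100 genes changed 2-fold, and it made 10 false calls. A further 100 genes were changed 4-fold in the same data. Genes with few counts were not changed, and each change was the same in every line. With so many changed genes the adjusted threshold is easier to pass than in the real data, where Scrib alone passed. The 84% is therefore not the share of 2-fold changes that would be found here. Recovery below 2-fold was not tested, and the largest estimate among the members was 1.43-fold lower (Btc). The line is a term because libraries of a line come from the same culture line; their deviations from group means correlated at 0.675 (T91), 0.771 (T113) and 0.714 (T118) over genes. Replicates of a group are separate lines. Members and lists were chosen with earlier results of these data known. Named are all members, Scrib, in each list the 3 genes with the smallest p, the scarce family genes by level, the top gene of marker lists, and the 3 closest profiles for the most variable pair of members (1 of these is not reported here); Adam17, Ccnd1, Gm19610, Cxcl5 and the other neighbours on chromosome 5 were chosen after their values were seen. Alternatives used DESeq2 1.42.0 and limma 3.58.1.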

Additional observations from a re-analysis of the deposited data

Results flagged for a closer look

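For Areg and Hbegf the libraries of a line differed in opposite directions in different lines, by more than 0.1 on the log2 scale either way. The log2 ratio of the Scrib over the Renilla hairpin was 0.32 in T91 and -0.88 in T113 for Areg, and 0.17 in T91 and -0.40 in T118 for Hbegf. Each line has 1 library per hairpin, so the difference between lines was not tested.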

How the results depend on the processing

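All 9 genes kept a log2 fold change below 0 in each of the 11 alternatives, and Areg without T91 was the only one to pass. Without the line as replicate block, 1 gene passed for the knockdown, Scrib, and 0 members. The knockdown count over all genes was 64 without the low-count filter, 63 with DESeq2 and 8 with limma-voom, and from 9 to 94 with 1 line left out (94 without T91, 25 without T118, 9 without T113). Among members it was from 0 to 1 with 1 line left out. For the lines, 1989 genes passed, 2966 without the filter, 2650 with DESeq2, 1310 with an average CPM of at least 5 and from 1209 to 3305 with 1 line left out. Members passing between lines numbered 3 without the filter (Tgfa, Erbb3 and Errfi1), 2 with DESeq2 (Tgfa and Errfi1) and from 0 to 3 with 1 line left out. Besides the fewer genes or libraries that some of these settings hold, the cause was not tested. With the Renilla hairpin, per-length order changed with the longest transcript for Errfi1 against Erbb3 and for Hbegf against Ereg. Depth limits Epgn and the neuregulins, and intervals over lines rest on 2 residual degrees of freedom plus a prior of 4.43 (median) estimated across genes.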
